A study of Mus musculus with 12 samples.

Results

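The respiratory chain was examined in cultured mouse cardiac fibroblasts with and without the TGF-β antagonist Smad7. The genes were chosen by name, as the protein-coding genes whose symbols mark subunits of complex I (Nduf), complex II (Sdh), complex III (Uqcr and Cyc1), complex IV (Cox4 to Cox8) and the ATP synthase, complex V (Atp5). The rule found 81 of the 35275 genes counted, 36 for complex I, 4 for complex II, 9 for complex III, 15 for complex IV and 17 for complex V. Of these, 78 had enough reads to be tested among 15150 tested genes. The remaining 3, Cox7b2, Cox8b and Cox8c, are isoforms of complex IV subunits and were close to 0 in every library. By function Ndufa4 belongs to complex IV, and Atp5s and Atp5sl are not core subunits of the ATP synthase. All are counted here by their names.

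Complexes I, III and IV pump protons across the inner mitochondrial membrane while electrons pass from NADH to oxygen. Complex II feeds electrons in from succinate and does not pump, and complex V uses the proton gradient to make ATP. All subunits of complex II and most subunits of the other complexes are encoded in the nucleus, and a few core subunits are encoded by the mitochondrial genome. Many nuclear subunits are small proteins made from short and abundant mRNAs, and their genes are known targets of the transcription factors NRF1, GABPA and YY1.

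RNA-Seq had been performed on poly(A) RNA from 4 groups with 3 libraries each. The cells came from hearts of 12-week-old C57BL/6 mice carrying a floxed Smad7 gene and were used at passage 2. Control cells were infected for 48 hours at 100 MOI with a control adenovirus, which the labels describe as expressing GFP and the study's methods as empty, and Smad7-KO cells with an adenovirus expressing Cre, which deletes the floxed gene. Each was left unstimulated or was stimulated with TGF-β1 at 10 ng/ml, for 2 hours by one field of the labels and for 4 hours by another. Viral infection and, by the study's account, a floxed Smad7 gene were therefore shared by all 4 groups. The sample titles call the control cells wild type. Cre was given only to Smad7-KO cells, so its own effects cannot be told apart from those of Smad7 loss. Whether replicates came from separate animals or cultures is not given in the sources used here, so that p values measure the spread between these libraries.

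Total counts ranged from 19056916 to 25371321 per library. Smad7 was at 71.4 to 77.2 CPM (counts scaled to the normalised library size) in control cells and at 28.4 to 31.1 CPM in Smad7-KO cells without TGF-β1, and at 142 to 150 against 70.0 to 80.8 CPM with it, so reads were fewer but not absent in the KO. The count covers the whole gene and does not resolve the deleted part. The 11 fibroblast markers summed to 10759 to 14382 CPM over the 12 libraries, and 11 macrophage markers to more, 15768 to 25687 CPM, led by Lyz2. Endothelial markers summed to 280 to 332 CPM in control libraries and to 46.5 to 58.7 CPM in Smad7-KO libraries. Cardiomyocyte markers were low, at 19.1 to 79.6 CPM in all, most of it Tnnt2, and Nppa, Myl3, Actc1 and Myh7 were close to 0. In bulk RNA, fewer cells of a type and less RNA per cell cannot be told apart.

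Promoter windows from 250 bases before to 50 bases after the transcription start were matched to 65 of the 81 genes in RefSeq (GRCm38.p6). The letters GCGCATGCG of the NRF1 motif, searched on both strands, were present in 8 of the 65 (12.3%), against 1.95% of 27025 genes in the table and 3.86% of the 10769 tested genes in it. The ETS-type letters CCGGAAG, bound by GABPA, were present in 24.6% against 9.93% and 18.5%, and the letters AANATGGCG of YY1 in 15.4% against 2.76% and 5.46%. TCAAGGTCA, the site of ESRRA, was present in 2 of the 65 genes (3.08%) against 0.466% and 0.316%. The NRF1 letters are nearly the same on both strands, so that 1 stretch usually matches both, and genes rather than sites are counted. A match describes the letters only.

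The windows printed are those of the 4 genes that held the NRF1 letters and were lower in unstimulated Smad7-KO than in control fibroblasts, and of Cox6b2, the gene that was lower in both Smad7-KO comparisons. They read 5′ to 3′ along the gene, and capitals mark matches to the NRF1 or GABPA letters. The Cox6a1 window (chr5:115348909-115349208, minus strand) has the NRF1 letters 162 bases and the GABPA letters 16 bases before the start. The Ndufa11 window (chr17:56717512-56717811, plus strand) has the NRF1 letters 60 bases before the start and the Ndufa8 window (chr2:36049289-36049588, minus strand) 9 bases before it. In the Uqcrc1 window (chr9:108936398-108936697, plus strand) they begin 30 bases after the start. The Cox6b2 window (chr7:4753045-4753344, minus strand) held none of the 4 motifs.
Cox6a1: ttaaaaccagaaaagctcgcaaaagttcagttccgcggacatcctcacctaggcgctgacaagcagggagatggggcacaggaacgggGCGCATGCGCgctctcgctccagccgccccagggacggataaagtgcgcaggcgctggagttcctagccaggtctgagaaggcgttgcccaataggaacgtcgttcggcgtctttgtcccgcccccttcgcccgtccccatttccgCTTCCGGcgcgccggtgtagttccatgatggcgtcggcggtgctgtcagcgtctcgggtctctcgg
Ndufa11: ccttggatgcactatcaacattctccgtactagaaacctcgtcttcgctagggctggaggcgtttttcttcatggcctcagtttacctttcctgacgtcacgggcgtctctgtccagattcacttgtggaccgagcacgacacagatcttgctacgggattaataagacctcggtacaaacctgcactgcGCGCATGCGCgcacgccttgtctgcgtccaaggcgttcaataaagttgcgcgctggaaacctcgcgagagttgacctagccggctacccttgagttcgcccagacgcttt
Ndufa8: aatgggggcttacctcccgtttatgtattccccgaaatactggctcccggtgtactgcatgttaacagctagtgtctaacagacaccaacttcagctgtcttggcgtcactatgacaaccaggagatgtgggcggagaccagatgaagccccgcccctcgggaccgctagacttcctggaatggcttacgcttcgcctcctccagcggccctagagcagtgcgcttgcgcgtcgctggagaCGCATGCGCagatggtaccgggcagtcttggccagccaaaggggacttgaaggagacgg
Uqcrc1: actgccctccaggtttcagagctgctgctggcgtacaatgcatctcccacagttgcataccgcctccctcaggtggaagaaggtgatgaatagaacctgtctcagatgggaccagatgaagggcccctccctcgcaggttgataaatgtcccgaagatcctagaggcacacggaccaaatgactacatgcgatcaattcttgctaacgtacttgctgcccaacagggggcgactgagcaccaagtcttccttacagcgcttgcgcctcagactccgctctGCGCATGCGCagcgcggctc
Cox6b2: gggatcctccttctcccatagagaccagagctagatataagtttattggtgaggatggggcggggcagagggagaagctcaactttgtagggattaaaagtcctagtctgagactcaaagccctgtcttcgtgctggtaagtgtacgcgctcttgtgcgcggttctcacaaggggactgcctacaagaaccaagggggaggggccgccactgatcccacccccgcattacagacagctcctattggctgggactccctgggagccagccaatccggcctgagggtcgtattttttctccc

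By FPKM, the respiratory chain genes were mostly abundant in unstimulated control fibroblasts. Median levels were 62.5 FPKM for complex I, 78.7 for complex II, 89.6 for complex III, 84.7 for complex IV and 115 for complex V (mean of 3 libraries for each gene). Cox6a1, the widely expressed form of a complex IV subunit, was highest at 605 ± 354 FPKM (SD, n = 3). It was followed by Cox8a at 472 ± 147, by the catalytic β subunit of ATP synthase Atp5b at 398 ± 36.5, by Cox6b1 at 349 ± 173, by Atp5l at 316 ± 206 and by Ndufa4 at 296 ± 145 FPKM. The SDs are so wide that none of these neighbours in the order differed beyond its spread. Within complex IV, the isoforms known from heart and skeletal muscle were far lower than their widely expressed partners. Cox6a2 was at 8.84 ± 2.92 FPKM, Cox7a1 at 2.73 ± 1.69 and Cox8b at 0.301 ± 0.403, against 95 ± 42.3 FPKM for Cox7a2. Cox6b2, an isoform of Cox6b1 known from testis, was at 7.49 ± 2.85 FPKM. Ndufb2 was the lowest tested gene, at 0.668 ± 0.264 FPKM. Its interval overlaps Adck2 on the same strand and Braf on the other, and whether strand was used in counting is not given in the sources used here.

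**Figure D1:**
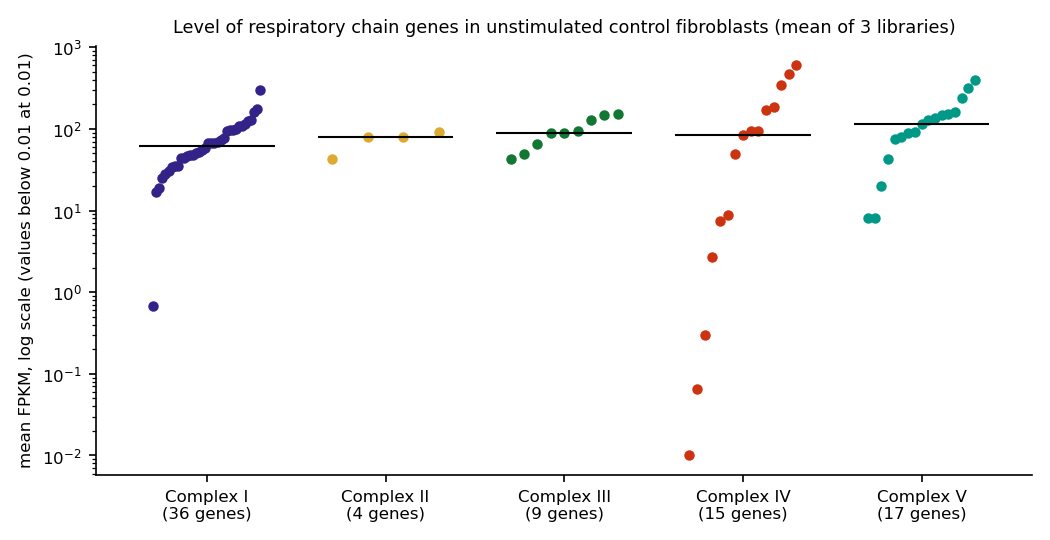
Mean FPKM (log scale) of the 81 respiratory chain genes in 3 unstimulated control libraries, sorted within each complex, with a line at the median. Most genes lie between 10 and 1000 FPKM, and the lowest points of complex IV are tissue-restricted isoforms such as Cox8c, which was listed at 0.

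Unstimulated control libraries differed more among themselves in respiratory chain expression than the libraries of the other 3 groups. The 81 genes took 0.792%, 1.15% and 0.543% of the counts in unstimulated control libraries 1, 2 and 3, and 0.594%, 0.804% and 0.686% in TGF-β1 control libraries. In Smad7-KO libraries they took 0.533%, 0.552% and 0.540% without and 0.508%, 0.504% and 0.599% with TGF-β1. Unstimulated control library 2 was the highest of 12 libraries in 73 of 78 genes, and unstimulated control library 3 was the lowest of its group in 75. Library 3 was below at least 1 unstimulated Smad7-KO library in 61 of 78 genes and below all 3 in 36. For a typical member, the highest control library had 3.0 times the CPM of the lowest (median over 78 genes), against 1.43 times in TGF-β1 control, 1.08 times in unstimulated Smad7-KO and 1.28 times in TGF-β1 Smad7-KO cells. The unstimulated control group thus held almost the whole range of the experiment.

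Respiratory chain genes moved together and with other short genes. The median member lay 0.37, 1.22 and -0.31 (log2) from its mean over 12 libraries in unstimulated control libraries 1, 2 and 3. The 83 tested cytosolic ribosomal protein genes lay at 0.41, 1.32 and -0.33 in the same libraries, and the shortest decile of all tested genes at 0.24, 0.78 and -0.17. The longest decile went the other way, at -0.31, -0.72 and 0.21. Over the 12 libraries the mean of the members correlated with that of the ribosomal protein genes at r = 0.999 and with that of 3765 other coding genes of similar length and level at r = 0.994, as a description of libraries that share depth and preparation. A member followed the mean of the others with a median r of 0.978, and 68 of 78 reached 0.9. Cox6b1, Ndufa4 and Uqcrq were the most typical (r = 0.997, 0.995 and 0.995 over 12 libraries). The share of counts on genes of the mitochondrial genome was lowest in unstimulated control library 2, at 1.45%, against 2.17% and 2.30% in libraries 1 and 3. The part of library quality in these differences was not tested.

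**Figure D2:**
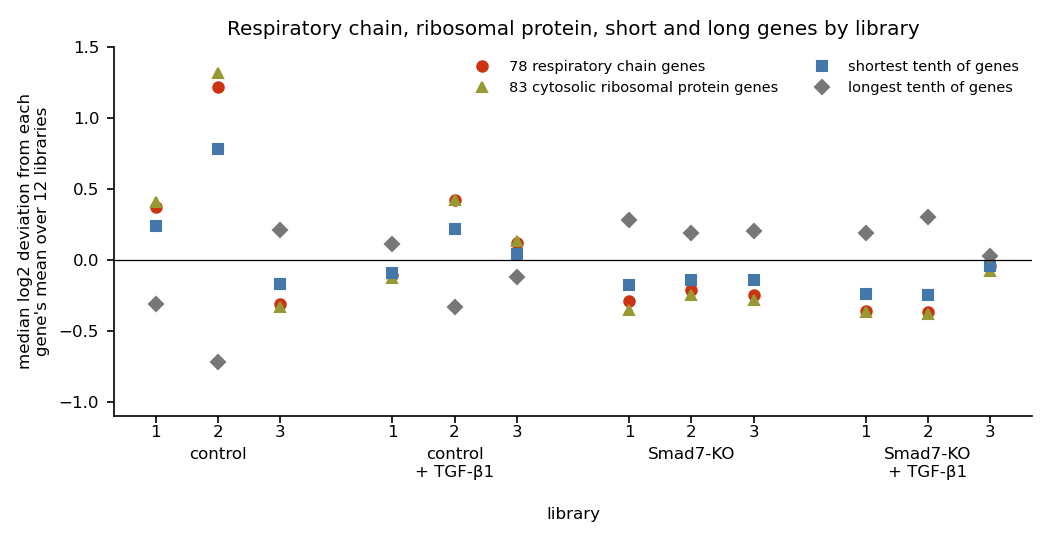
Median log2 deviation from each gene's mean over 12 libraries (y) for every library (x, 3 per group), for 78 respiratory chain genes, 83 cytosolic ribosomal protein genes and the shortest and longest deciles of tested genes. Respiratory chain genes follow the ribosomal protein genes, from 1.22 in unstimulated control library 2 to -0.37 in TGF-β1 Smad7-KO library 2, while the longest genes move the other way.

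Unstimulated Smad7-KO fibroblasts were compared with unstimulated control fibroblasts to ask whether Smad7 loss alters respiratory chain expression without added TGF-β1. By edgeR's quasi-likelihood test, 18 of 78 respiratory chain genes (23.1%) were lower in Smad7-KO cells and none was higher (adjusted p of 0.05 or less), against 13.7% of all tested genes that were lower and 12.1% that were higher, or 25.8% in either direction. The median log2 fold change was -0.85, against -0.02 over all tested genes, and 77 of 78 genes had a negative value. The 18 spanned -2.18 to -0.53, with adjusted p values of 0.00275 to 0.0494, and another 40 genes had adjusted p values between 0.05 and 0.1. Libraries of the groups did not overlap in 16 genes that were lower, or 20.5%. This compares with 19.2% of all tested genes and 28.3% of other coding genes weighted to the members' lengths. They also did not overlap in 1 gene that was higher, Sdha, against 22.1% of all tested genes.

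The members are short, and short genes as a whole were lower. GeneLength is the length in bases given for each gene in the count table. It had a median of 967 over the tested members and of 3007 over all tested genes. Whether it is the length of a single mRNA is not given in the sources used here. Of the 78 members, 66 fell in the shortest 3 deciles of all tested genes. Among other coding genes of the shortest decile the median log2 fold change was -0.70 and 26.0% were lower, and the 44 members in it had a median of -0.93 with 10 lower (22.7%). In the next decile the median was -0.50 with 29.0% lower, and the 14 members had -0.86 with 5 lower. With the deciles weighted as the members fill them, 24.4% of other coding genes were lower, or 29.0% of those that also had a similar level, next to 23.1% of members. The share of members called lower was thus close to that of other genes of their length. In size, 62 of 78 members lay below the median of other coding genes of their own decile, by a median of 0.24 on the log2 scale, or 0.19 with similar level (56 of 78 below). Members moved together across libraries, so they are not independent. Without unstimulated control library 2 their median was -0.32, against -0.13 for other coding genes of similar length. Without library 3 it was -1.18 against -0.39.

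With a trend on gene length removed from each library, 12 members were lower and none was higher, or 15.4%, next to 15% of all tested genes lower and 14.0% higher, and the median fell by 0.45 rather than 0.85 on the log2 scale. Of the 18 genes, 11 were also lower on this scale. These were Ndufa11, Ndufa12, Ndufa4, Ndufa7, Ndufa8, Ndufs5, Cox6a1, Cox6a2, Cox6b2, Atp5g1 and Atp5j2, and Cox6b1 was added to them (adjusted p = 0.0458 by edgeR).

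**Figure D3:**
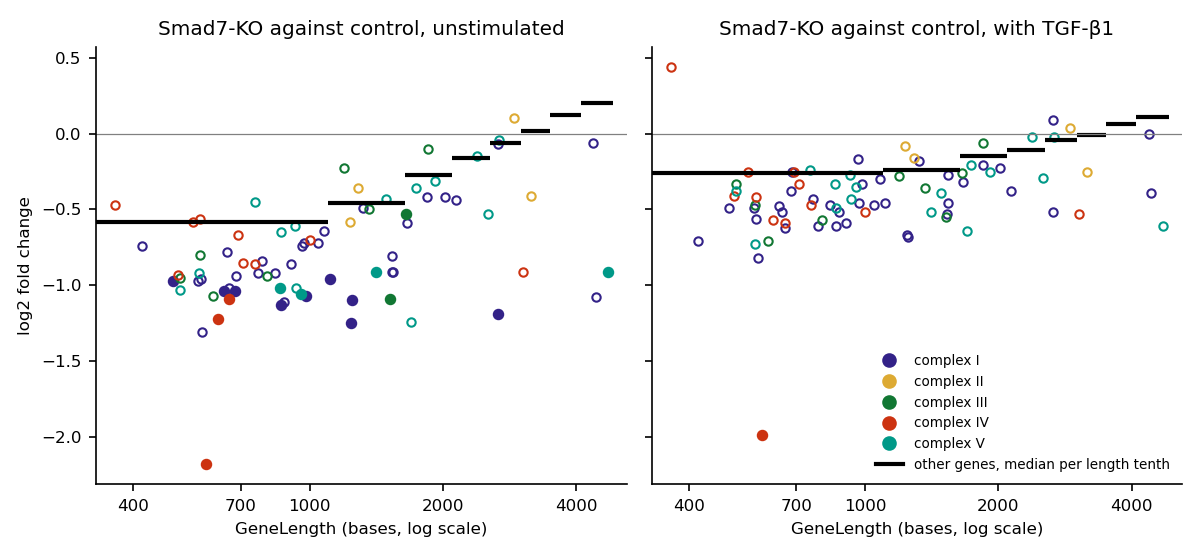
Log2 fold change of Smad7-KO against control (y) by GeneLength (x, log scale) for 78 respiratory chain genes, unstimulated on the left and with TGF-β1 on the right. Filled points passed the test (18 and 1 genes), colours mark complexes, and black bars are the medians of all other tested genes in each decile of length, which rise from -0.58 and -0.26 in the shortest decile.

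Cox6b2 (chromosome 7, 4751792 to 4753094, minus strand), whose product can take the place of that of Cox6b1 in complex IV, stood apart from the other members. Its counts were 127, 91 and 58 in unstimulated control libraries and 15, 25 and 25 in unstimulated Smad7-KO libraries, or 5.69, 5.20 and 2.45 against 0.743, 1.07 and 1.08 CPM. All Smad7-KO libraries were below all control libraries, library 3 included. The log2 fold change was -2.18 ± 0.37 (SE; adjusted p = 0.00275), and -1.86 with the length trend removed (adjusted p = 0.00107). No other annotated gene overlaps its interval. Cox6b1, the widely expressed form, was at 158, 294 and 93.9 CPM in control and at 96.1, 96.1 and 93.4 CPM in Smad7-KO libraries, so its groups overlapped (log2 fold change -0.93 ± 0.32, adjusted p = 0.052). Cox6b2 was thus a minor isoform in all 12 libraries.

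In complex IV as a whole, 3 of 12 tested genes were lower (25%), Cox6b2, Cox6a1 and Cox6a2, and the median was -0.85. Cox6a1, the widely expressed form of subunit VIa, was at 319, 669 and 178 CPM in control and at 165, 170 and 165 CPM in Smad7-KO libraries (log2 fold change -1.22 ± 0.37, adjusted p = 0.0362). The groups did not overlap, but control library 3 lay just above the Smad7-KO libraries and control library 2 far above all. Cox6a2, its heart and muscle form, was at 4.80, 8.74 and 4.34 CPM against 2.92, 2.83 and 2.60 CPM (-1.09 ± 0.26, adjusted p = 0.0152). Cox8a, at 253, 366 and 169 CPM against 166, 177 and 183 CPM, overlapped (-0.58 ± 0.23, adjusted p = 0.0754), as did Cox5a (-0.67 ± 0.31), Cox7a2 (-0.86 ± 0.295) and the rarely counted Cox7a1 (-0.47 ± 0.61).

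In complex I, the NADH dehydrogenase, 9 of 36 genes were lower (25%), and all 36 had a negative value (median -0.92). They were the accessory subunits Ndufa13, Ndufa11, Ndufa8, Ndufc1, Ndufa7, Ndufs5 and Ndufa12, the core subunit Ndufs7, which carries an iron-sulfur cluster, and Ndufa4, counted here by name. Ndufa13 was at 97.2, 222 and 52.2 CPM in control and at 51.5, 54.3 and 50.5 CPM in Smad7-KO libraries, so that control library 3 lay within the Smad7-KO range (-1.25 ± 0.41, adjusted p = 0.045). Ndufa11, at 78.4, 155 and 47.9 CPM against 41.5, 40.3 and 41.3 CPM, did not overlap (-1.19 ± 0.33, adjusted p = 0.0256). Its GeneLength of 2661 bases is above that of most members, and its value was -1.14 with the length trend removed. Ndufa8, at 89.6, 152 and 46.2 CPM against 41.7, 47.6 and 42.0 CPM, overlapped in 1 control library (-1.13 ± 0.33, adjusted p = 0.0323). Ndufa2 had the largest difference of complex I but did not pass, at -1.31 ± 0.46 (adjusted p = 0.0538).

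Among the core subunits of complex I described here, the longest differed least. Ndufs1, the largest subunit of its electron input module, was at 61.5, 78.4 and 60.9 CPM in control and at 63.1, 66.9 and 61.4 CPM in Smad7-KO libraries (-0.07 ± 0.11, adjusted p = 0.638). Ndufv1, which binds NADH, had a value of -0.59 ± 0.22 (adjusted p = 0.0672). Among the members, log2 fold change rose with GeneLength (Spearman's rho = 0.42 across 78 genes, which are not independent).

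None of the 4 genes of complex II, succinate dehydrogenase, passed edgeR's test, DESeq2 or limma, and 2 had an unadjusted p under 0.05 by edgeR. Sdha, the flavoprotein that oxidises succinate, was at 227, 242 and 225 CPM in control and at 247, 252 and 244 CPM in Smad7-KO libraries, the only member with every Smad7-KO library above every control library, by a small margin (0.10 ± 0.08, adjusted p = 0.357). The iron-sulfur subunit Sdhb was at -0.58 ± 0.245 (adjusted p = 0.0925), and the membrane anchors Sdhc and Sdhd were at -0.41 ± 0.17 and -0.36 ± 0.18.

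In complex III, 2 of 9 genes were lower (22.2%), and the median was -0.80. Uqcrc1, a core protein, was at 150, 189 and 114 CPM in control and at 104, 104 and 105 CPM in Smad7-KO libraries, without overlap (-0.53 ± 0.17, adjusted p = 0.0418). Uqcrq, a small subunit, was at 129, 248 and 71.7 CPM against 67.6, 70.8 and 72.8 CPM (-1.09 ± 0.35, adjusted p = 0.0423). The other core protein, Uqcrc2, was at 88.7, 74.4 and 76.3 CPM against 77.8, 73.4 and 72.5 CPM (-0.10 ± 0.09, adjusted p = 0.424). It differed from most members in that control library 2 was not its highest. The Rieske protein Uqcrfs1 was at -0.50 ± 0.21 and cytochrome c1, Cyc1, at -0.23 ± 0.13, and neither passed. The small subunits Uqcr10 and Uqcrh, the most abundant genes of this complex, were at -0.95 ± 0.38 and -0.94 ± 0.35 and did not pass.

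In complex V, 4 of 17 genes were lower (23.5%), namely Atp5j2, Atp5h, Atp5d and Atp5g1. Atp5g1 encodes the c subunit of the rotor, as do Atp5g2 and Atp5g3. It was at 94.4, 136 and 58.8 CPM in control and at 47.3, 54.4 and 51.9 CPM in Smad7-KO libraries, without overlap (-0.91 ± 0.24, adjusted p = 0.0222). Its GeneLength of 4715 bases was the highest of the members, and its value was -1.22 with the length trend removed (adjusted p = 0.0212 by edgeR). Atp5g2 and Atp5g3 did not pass, at -0.45 ± 0.20 and -0.65 ± 0.26. Both catalytic head genes differed little. Atp5a1 was at 431, 466 and 401 CPM in control and at 423, 427 and 412 CPM in Smad7-KO libraries (-0.04 ± 0.09, adjusted p = 0.748). Atp5b, at 795, 863 and 655 CPM against 616, 628 and 620 CPM, did not overlap but did not pass (-0.31 ± 0.12, adjusted p = 0.0681).

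**Figure D4:**
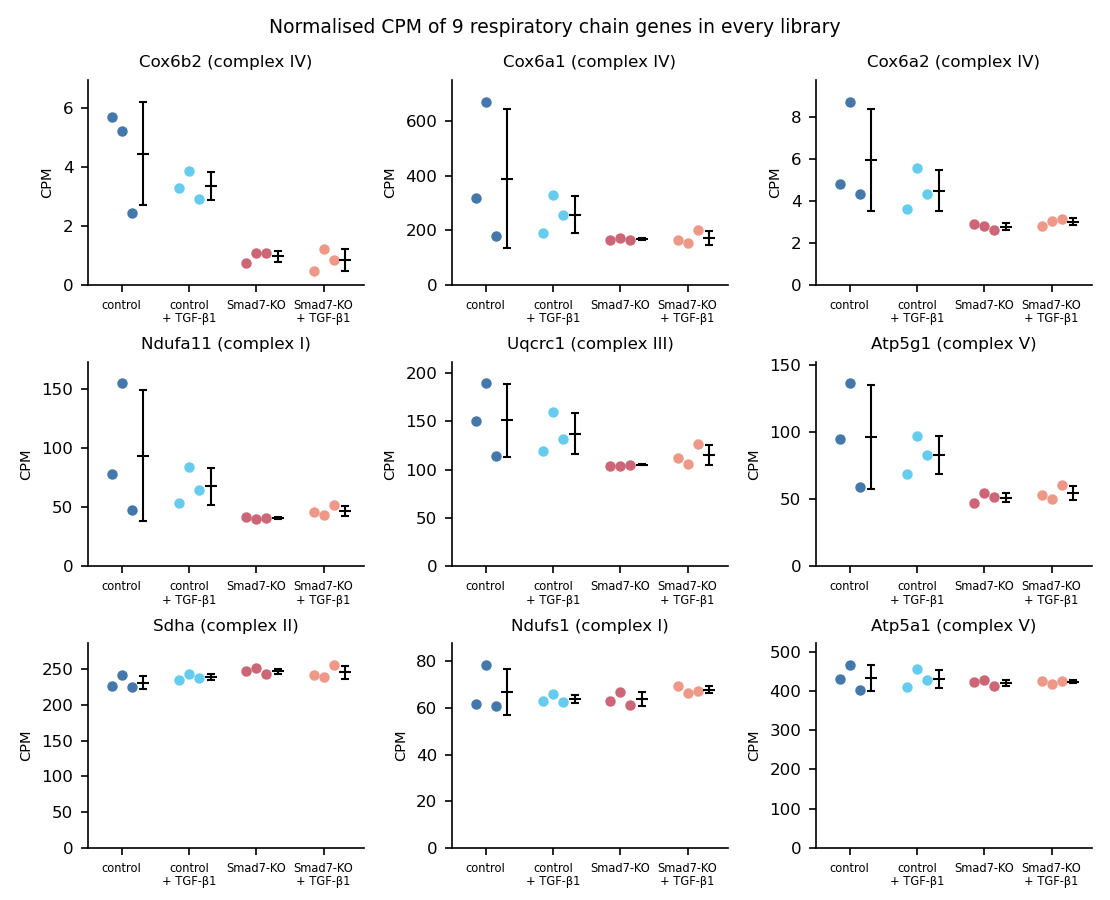
Normalised CPM (y, from 0) of 9 respiratory chain genes in every library of the 4 groups (x), with the group mean ± SD (n = 3) in black beside the points. In Cox6b2 all 6 Smad7-KO libraries are below all 6 control libraries, in Cox6a1, Ndufa11 and Atp5g1 unstimulated control library 2 is far above the rest, and Sdha and Atp5a1 differ little between groups.

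The count of lower genes rested on single libraries. Without unstimulated control library 3, 71 of 78 members were lower, next to 51.5% of all tested genes called in either direction. That library resembled the Smad7-KO libraries in the level of the members, but not in Smad7 (77.2 CPM) or endothelial markers (280 CPM). Without unstimulated control library 2, 4 were lower, the median was -0.32, and 19.4% of all tested genes were called. Without control library 1 the count was 3, and 12.9% of all tested genes were called. Without unstimulated Smad7-KO library 1, 2 or 3 it was 2, 1 or 1, with 10.6%, 9.9% and 9.9% of all tested genes called, and without any 1 of the TGF-β1 Smad7-KO libraries it was 6, with 18.2% to 19.8% called. It was 1 when only the 6 compared libraries were fitted, with 4.54% of all tested genes called. DESeq2 called 47 members lower (60.3%), next to 35.5% of all tested genes and 36.7% of other coding genes of similar length called in either direction. With the length trend removed, leaving out 1 library gave 2 to 63, with a median of -0.17 and 3 lower and 1 higher without control library 2. Cox6b2 was lower in all 34 fits, with log2 fold changes of -2.48 to -1.62 and adjusted p values of 7.69e-07 to 0.0338. Cox6a2 was called in 31 of them, Ndufa11 in 26, Atp5g1 in 25, Ndufa8 in 22, Cox6a1 in 17, Ndufa4 in 13, Uqcrc1 in 10 and Ndufa13 in 6.

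**Figure D5:**
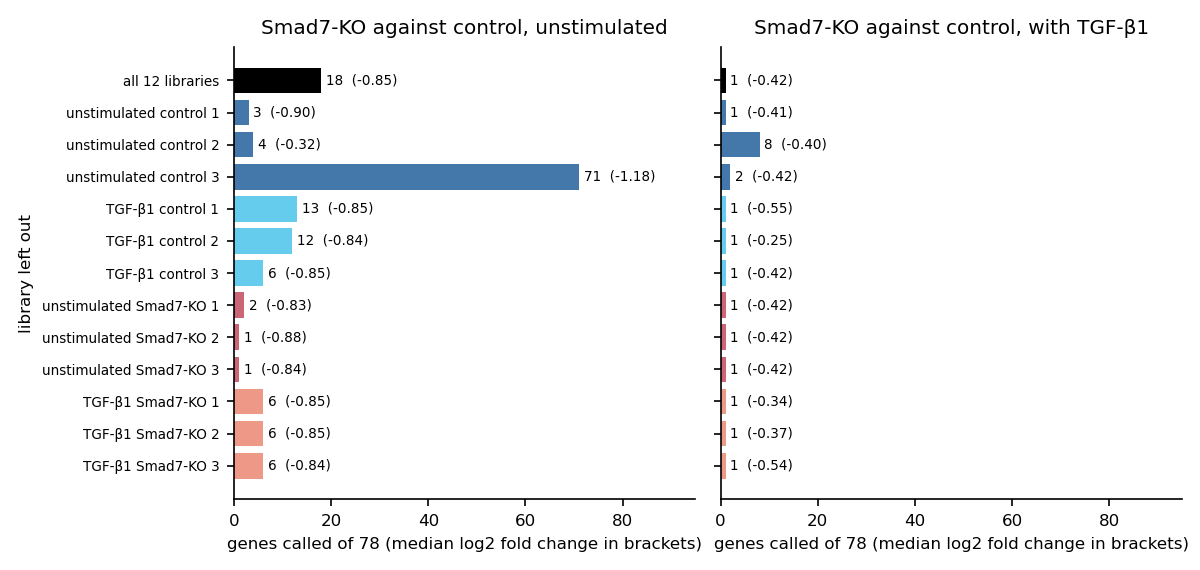
Number of respiratory chain genes called of 78 (x) when each library (y) is left out of the fit, with the median log2 fold change of the members in brackets, for the unstimulated (left) and TGF-β1 (right) comparison of Smad7-KO with control. The unstimulated count runs from 1 to 71 around 18, and the TGF-β1 count from 1 to 8 around 1.

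In TGF-β1-stimulated cells, 1 of 78 respiratory chain genes, Cox6b2, was lower in Smad7-KO than in control fibroblasts (1.28%), and none was higher, against 7.23% of all tested genes lower and 5.72% higher by edgeR, or 13% in either direction. Cox6b2 had 81, 95 and 60 counts in TGF-β1 control and 12, 27 and 18 counts in TGF-β1 Smad7-KO libraries, or 3.28, 3.86 and 2.92 against 0.479, 1.22 and 0.849 CPM. The groups did not overlap, and the log2 fold change was -1.99 ± 0.38 (adjusted p = 0.00626). It was lower in all 34 fits of this comparison as well. Its libraries are other ones than those of the unstimulated comparison, although the spread was estimated over all 12.

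The other members had smaller values of the same sign. The median was -0.42, next to -0.02 over all tested genes, and 74 of 78 were negative. Cox6a1 was at 189, 327 and 254 CPM in control and at 163, 154 and 202 CPM in Smad7-KO libraries with TGF-β1, so that the groups overlapped (-0.57 ± 0.37, adjusted p = 0.322). Ndufa11 was at 54.0, 84.4 and 65.1 CPM against 46.2, 43.7 and 52.0 CPM (-0.52 ± 0.33, adjusted p = 0.308), and Atp5g1 at 68.6, 97.0 and 83.1 CPM against 53.2, 50 and 60.3 CPM (-0.61 ± 0.24, adjusted p = 0.124). Neither of these overlapped, yet neither passed. Libraries of the groups did not overlap in 20 members that were lower (25.6%), against 23.0% of all tested genes and 28.6% of other coding genes weighted to the members' lengths. Every TGF-β1 Smad7-KO library was above every TGF-β1 control library in 1 member, Ndufs1, against 21.9% of all tested genes.

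Other short genes were lower here too. Other coding genes of the shortest decile had a median of -0.34 and the 44 members in it of -0.47, and 58 of 78 members lay below the median of other coding genes of their decile, by a median of 0.13 on the log2 scale. The members are not independent here either. With the length trend removed, the median was -0.24 and Cox6b2 was the 1 lower gene, against 10.3% of all tested genes lower and 12.9% higher, or 23.2% in either direction. The count depended on which libraries set the spread. With only the 6 TGF-β1 libraries in the fit, 28 members were lower (35.9%), next to 30.8% of all tested genes called in either direction and 27.9% of other coding genes of similar length. Without unstimulated control library 2, which is not part of this comparison, 8 were lower (10.3%), next to 28.8% of all tested genes called in either direction. Without unstimulated control library 3, 2 were lower (2.56%), next to 22.6% of all tested genes. The biological coefficient of variation was 0.333 among the unstimulated control libraries, against 0.138 among those with TGF-β1, and 0.0529 and 0.0996 among the respective Smad7-KO libraries.

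The effect of TGF-β1 itself was read in each genotype. These comparisons share their libraries with those above. In control cells no member passed by edgeR, DESeq2 or limma, against 8.37% of all tested genes called by edgeR, and none had an unadjusted p under 0.05 by edgeR. The median was -0.40, and in no member did the libraries of the groups separate, against 10.9% of all tested genes separated upward and 9.0% downward. This median rested on the unstimulated control libraries. It was 0.08 without library 2, and without library 3 it was -0.70 with 43 members lower (55.1%), next to 22.3% of all tested genes and 23.0% of other coding genes of similar length called in either direction. In Smad7-KO cells, none passed by edgeR, DESeq2 or limma, against 10.2% of all tested genes called by edgeR, none had an unadjusted p under 0.05 by edgeR, and the median was 0.03. Libraries did not overlap in 9 members that were higher (11.5%, against 19% of all tested genes) and in 1 that was lower, Atp5s, a factor that is not part of the core enzyme (against 19.9%).

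The interaction asked whether TGF-β1 altered the size of the Smad7-KO effect. No member passed by edgeR, DESeq2 or limma, and none had an unadjusted p under 0.05 by edgeR, against 0.0198% of all tested genes called by edgeR. The larger number of lower genes without TGF-β1 is therefore not shown to differ from that with TGF-β1. The median interaction value was 0.37, against -0.01 over all tested genes, and 76 of 78 members were positive. Other coding genes of the shortest decile had a median of 0.37, and the 44 members in it of 0.44. Cox6b2 had values of -2.18 and -1.99 in the respective comparisons.

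Related genes were read in the same way. Of 8 subunits that the naming rule misses, 7 were tested (Cyct was close to 0), and none passed by edgeR in unstimulated Smad7-KO cells. By edgeR 4 had an unadjusted p under 0.05, and DESeq2 called 3 lower and limma 2. With the length trend removed, none was lower and 1 was higher (14.3%), next to 14.0% of all tested genes higher. Cox4i1, the widely expressed form of a complex IV subunit, was at 266, 565 and 143 CPM in control and at 168, 175 and 175 CPM in Smad7-KO libraries (-0.91, adjusted p = 0.0809), much like its partners. Of 12 tested subunits encoded by the mitochondrial genome, 3 were lower (25%), mt-Nd2 (-0.30), mt-Atp6 (-0.71) and mt-Co3 (-0.84), and the median was -0.08. The mitochondrial genome has near-identical copies in the nucleus and its genes were counted unevenly, with mt-Co1 at 6077 to 13258 CPM and mt-Co3 at 11.1 to 31.7 CPM, so these values are uncertain. Of 41 tested assembly factors, which build the complexes, 6 were lower (Surf1, Coa3, Cox20, Atpaf2, Cox19 and Coa6), or 14.6%. Another 3, or 7.32%, were higher (Taco1, Atpaf1 and Cox15), and the median of the list was -0.39. Over all tested genes 13.7% were lower and 12.1% higher. In TGF-β1-stimulated cells none of these 3 lists had a gene past edgeR's threshold, with 1, 0 and 5 genes at an unadjusted p under 0.05, and DESeq2 and limma each called 0, 0 and 1. DESeq2 called 1 assembly factor higher, and limma called 1 lower. With the length trend removed, edgeR called 1, 1 and 2 genes of these lists higher (14.3%, 8.33% and 4.88%) and none lower. Over all tested genes 12.9% were higher and 10.3% lower on this scale.

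In the tricarboxylic acid cycle, which supplies NADH and succinate, 3 of 18 genes were lower in unstimulated Smad7-KO cells (16.7%). These were Mdh2 (-0.69), Fh1 (-0.60) and Idh3a (-0.52), and Ogdh was higher (0.44). Over all tested genes 13.7% were lower and 12.1% higher. Idh3a, a subunit of isocitrate dehydrogenase, was also lower with TGF-β1 (-0.42, adjusted p = 0.0342). It was at 53.2, 66.1 and 52.9 CPM in unstimulated control and at 38, 45.0 and 36.8 CPM in unstimulated Smad7-KO libraries, without overlap, and control library 2 was again the highest. Among 18 tested regulators of mitochondrial biogenesis, Gabpa was higher in unstimulated Smad7-KO cells (0.44, adjusted p = 0.0405 by edgeR). This was 5.56% of the list, against 12.1% of all tested genes. With the length trend removed, no regulator was called in this comparison. Ppargc1a, the best known coactivator of the pathway, was close to 0. Gabpa overlaps the member Atp5j. Pprc1, a serum-responsive coactivator of the same family, was higher with TGF-β1 in control (0.80, adjusted p = 0.0185) and in Smad7-KO cells (0.67, adjusted p = 0.0398). Of 76 mitochondrial ribosomal protein genes, edgeR called 15 lower in unstimulated Smad7-KO cells (19.7%, median -0.63). Of 83 cytosolic ribosomal protein genes it called 34 (41.0%, median -0.93). Of other coding genes weighted to the lengths of the respiratory chain genes, 24.4% were lower by this test. The order of the lists depended on the tool. DESeq2 called 38 mitochondrial and 71 cytosolic ribosomal protein genes lower, and limma called 13 and 6. Of the respiratory chain genes DESeq2 called 47 of 78 lower and limma 11 of 77. With the length trend removed, edgeR called 14 and 19 genes of the ribosomal lists lower (18.4% and 22.9%), next to 15% of all tested genes. In TGF-β1-stimulated cells no gene of either ribosomal list passed edgeR's test, with 6 and 1 genes at an unadjusted p under 0.05, and both DESeq2 and limma called 1 and 0 lower.

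Members were also read by the letters in their promoters. The 8 tested members that hold them had a median log2 fold change of -1.05 in the unstimulated comparison and 4 of the 8 were lower, next to a median of -0.86 and 12 lower in the 55 tested members whose windows lack them. The difference between these shares was not tested. For the GABPA letters the medians were -0.94 in 16 and -0.86 in 47 members, and for YY1 -0.94 in 10 and -0.91 in 53. The mRNA of Nrf1, the factor this motif is named for, had a log2 fold change of 0.20 (adjusted p = 0.14).

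Reads of neighbouring genes may enter some values. The intervals of 21 members overlap another annotated gene, 16 of them a coding gene, which in 4 lies on the same strand. Among the genes described above these include Ndufa13 with Yjefn3, Uqcrc2 with Pdzd9, Atp5d with Dos, Cox6a2 with Itgad, Ndufa2 with Tmco6, Ndufs1 with Eef1b2, and Ndufb2. The overlapping gene had more counts than the member in Ndufb2 and in Ndufs1, where Eef1b2, on the other strand, had 107499 counts in all against 17540, and fewer in the others of these. Cell type markers moved with the comparison. In unstimulated Smad7-KO cells 7 of 10 endothelial markers were lower and 1 higher, 5 of 11 macrophage markers higher, 3 of 11 fibroblast markers lower and 2 higher, 3 of 7 tested cardiomyocyte markers lower and 4 of 5 skeletal muscle markers lower. Over all tested genes 13.7% were lower and 12.1% higher. The part of these markers in the values of the respiratory chain genes was not tested.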

How the data were processed

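The deposited table held raw read counts per gene and FPKM values for 12 libraries. Per the labels, poly(A) RNA was sequenced, and the submitters' processing notes name CASAVA, TopHat2 2.0, Cufflinks 2.1.1 and HTSeq 0.6.1 with the builds mm10 and GRCm38.p6. Strand use is not given in the sources used here. The FPKM that the authors deposited equalled count over GeneLength and library total in all 35275 genes (relative tolerance 1e-06).

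Counts were tested with edgeR 4.0.16 (quasi-likelihood, TMM, R 4.3.3) on all 12 libraries with 1 mean per group, after a minimum count of 10 (filterByExpr), which left 15150 genes. Benjamini-Hochberg adjusted p values over all of them were called at 0.05. CPM are TMM-normalised. Changes in 5 comparisons were read against all tested genes and against coding genes of similar length or of the same length decile. Alternatives were DESeq2 1.42.0, its size factors in edgeR, limma 3.58.1 on log2(FPKM + 1) or log2(FPKM + 0.1), no filter, only the libraries compared, a replicate block, removal of a loess trend on length (span 0.3) and leaving out each library. The length trend with a library left out was chosen after seeing the data. For 3 against 3 libraries the smallest exact two-sided p of a single value is 0.1.

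Members and lists were chosen with earlier results of these data known. Genes named were a set list of core and isoform subunits, up to 5 called genes per direction and comparison whose mean log2 CPM was 1 or more, and the most abundant of each complex. Others, such as Cox6b1, Ndufa2, Uqcrq and Ndufb2, were chosen after their values were seen.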

Additional observations from a re-analysis of the deposited data

How the results depend on the processing

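Of 78 respiratory chain genes, 18 were called in unstimulated Smad7-KO against control cells. The count was 47 with DESeq2, 1 with only the libraries compared, 5 without a filter, 11 and 9 with limma on log2(FPKM + 1) and log2(FPKM + 0.1), and 8 with the replicate block. It was 17 with DESeq2 size factors and 12 with the length trend removed, with or without the block. Leaving out 1 library gave 1 to 71, and 2 to 63 with the length trend removed as well (7, 4 and 63 without unstimulated control library 1, 2 and 3, 2 without any 1 unstimulated Smad7-KO library and 9 or 10 otherwise). With TGF-β1, the 1 called gene became 28 with only the libraries compared and 2 with limma at either pseudocount, and leaving out 1 library gave 1 to 8, or 1 to 10 with the length trend removed. For TGF-β1 in control cells, 0 became 0 to 43 without 1 library and 0 to 16 with the length trend also removed. The 43 came without unstimulated control library 3. For TGF-β1 in Smad7-KO cells, 0 became 1 with only the libraries compared, and 0 to 3 without 1 library and with the length trend removed. The interaction gave 0 in all 32 alternatives. No named gene reversed a call. Beyond the settings' own construction, the cause was not tested.

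Same-numbered libraries deviated together with r from -0.357 to 0.524, the highest between unstimulated and TGF-β1 control library 2. Whether replicate numbers pair the libraries is not given. These values cannot settle it, since short and long genes also shifted as a whole within groups. The replicate block left 1 gene in TGF-β1-stimulated cells and 0 for TGF-β1 in control cells.

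With 3 libraries per group, leaving out 1 of the 6 compared libraries moved the unstimulated count from 18 to values between 1 and 71. This limits what can be said of single members other than Cox6b2. The FPKM table and the count table are 1 measurement.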
